A study of Mus musculus with 8 samples.

Results

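The Il10ra locus and the genes of interleukin-10 (IL-10) signalling were described by the histone modification H3K27ac, acetylated lysine 27 of histone H3, which is found at promoters and enhancers in use. It was mapped by ChIP-seq, in which antibody-bound chromatin is sequenced. The regions are those that the deposited table assigns to Il10ra, Mir7086, Il10rb, Il10, Stat3 or Socs3 as the gene with the nearest start site, which gave 111 of 129304 regions, each 800 bp wide. These 6 genes were chosen by the measured H3K27ac difference between the genotypes at regions of Il10ra and Mir7086, which were lower in the mutant, together with the pathway to which Il10ra belongs. Their changes are therefore a description: which of them pass a threshold is counted beside the share of all genes or regions that do, and supports nothing further. Nuclei came from the frozen brains of C57BL/6 mice aged 2 years that were wild type (WT) or carried a knockout of Grn, the gene of progranulin (GrnKO). The labels used here state neither how the GrnKO allele was made nor the sex of the mice. Nuclei were sorted as positive for PU.1, a transcription factor of myeloid cells, and negative for OLIG2 and NEUN, which mark oligodendrocyte lineage cells and neurons. Each genotype had 2 H3K27ac libraries and 2 input libraries of chromatin without immunoprecipitation, and nuclei of 2 mice were pooled for every replicate.

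IL-10 is a cytokine that restrains inflammatory gene expression in macrophages and microglia. It binds a receptor made of the ligand-binding chain IL-10RA and the shared chain IL-10RB, whose kinases JAK1 and TYK2 phosphorylate the transcription factor STAT3. STAT3 then activates genes that include Socs3, whose protein inhibits signalling by several other cytokine receptors. In the brain, microglia are the main cells known to carry IL-10RA.

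Mir7086 is a microRNA gene on chromosome 9 at positions 45266643 to 45266707 (GRCm38.p6, RefSeq), inside the span of Il10ra at 45253837 to 45269149 and on the same, minus strand. The regions in the body and beyond the 3′ end of Il10ra lie nearer to the start of Mir7086 than to that of Il10ra, so the table names them for the microRNA. Region coordinates are those of the table, on mm10 per the submitters' processing notes, which is the same assembly. Both sets are treated here as one locus, and an H3K27ac value near this hairpin is no measure of the microRNA itself. The mature sequences are shown because this name carries 34 of the 47 regions of the locus, with the seed, bases 2 to 8, in capitals.
mmu-miR-7086-5p: aAGAGGAGaaagguuugggca
mmu-miR-7086-3p: uCCGUUCUgauaucuccucag
Neither seed occurs in another of the 1738 mature mouse microRNAs of the RefSeq table.

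Values are scaled tags, the authors' tags per region at a library total of 10000000 tags. The H3K27ac libraries held 15491642.5 to 20030832 tags and the inputs 4078179 to 14415969 tags. Tags summed over the listed regions, with tags shared by overlapping regions counted in each, came to 49.4% of the library total in WT replicate 1. In the other H3K27ac libraries this share was 63.3% to 65.7%. TMM scaling, which equalises the libraries on the bulk of their regions, was therefore added, with factors of 0.825 and 1.04 for WT and 1.08 for both GrnKO libraries. The median log2 change of all genes, GrnKO minus WT, was -0.046 after TMM and 0.18 in the authors' scaling, and that of all regions was -0.002 and 0.22. Values below are after TMM unless the authors' scaling is named. The region at the Grn promoter held 584.5 and 573 scaled tags in WT against 7.34 and 6.49 in GrnKO in the authors' scaling, so the libraries matched their labels, and markers of microglia were acetylated at their promoters as given below. In bulk nuclei, fewer nuclei that carry a mark and less of it per nucleus cannot be told apart.

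H3K27ac was lower in GrnKO across most of the Il10ra locus. Summed over the 13 regions named for Il10ra it was, in scaled tags, 4527 and 4997 in WT against 3888 and 3865 in GrnKO, which is 4762 ± 332 (SD, n = 2) in WT against 3877 ± 16.2 (SD, n = 2) in GrnKO. Summed over the 34 regions named for Mir7086 it was 6389 and 6269 in WT against 4521 and 4465 in GrnKO, which is 6329 ± 85.3 (SD, n = 2) in WT against 4493 ± 40.0 (SD, n = 2) in GrnKO. In both sums the groups did not overlap and both GrnKO libraries were the lower ones. The log2 change, GrnKO minus WT, was -0.29 ± 0.0762 (SE) for Il10ra and -0.49 ± 0.0676 (SE) for Mir7086. All 47 regions together gave 10916 and 11266 in WT against 8409 and 8330 in GrnKO.

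The receptor chain gene Il10rb was higher in GrnKO, with 1834 and 1741 in WT against 2357 and 2183 in GrnKO, no overlap of the groups and a log2 change of 0.34 ± 0.0901 (SE). The ligand gene Il10 gave 272 and 172 in WT against 193 and 155 in GrnKO, Stat3 335 and 459 in WT against 506 and 449.6 in GrnKO and Socs3 1638 and 1632 in WT against 1569 and 1640 in GrnKO, and the groups of all 3 overlapped. Their log2 changes were -0.32 ± 0.228, 0.28 ± 0.165 and -0.03 ± 0.0923 (SE). Of the 6 members, limma with Benjamini-Hochberg adjustment over 15380 genes called 2 lower (Il10ra, Mir7086) and 1 higher (Il10rb) at an adjusted p under 0.05. The same fit called 14.5% of all genes, 5.88% lower and 8.59% higher. Groups did not overlap in 29.4% of all genes on the lower side and in 25.4% on the higher side. Leaving out GrnKO replicate 1 or GrnKO replicate 2 left 1 member called, and leaving out WT replicate 2 gave 5.

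These sums depend on the scaling. In the authors' scaling, Il10ra was 3736 and 5175 in WT against 4204 and 4182 in GrnKO, so that the groups overlapped, and Mir7086 was 5273 and 6492 in WT against 4889 and 4831 in GrnKO, with both GrnKO libraries below both WT ones. All 47 regions of the locus together were 9009 and 11668 in WT against 9093 and 9013 in GrnKO, where WT replicate 1 was the lowest library and the groups overlapped. Il10rb was 1513 and 1803 in WT against 2548 and 2362 in GrnKO. Stat3 was 276 and 476 in WT against 547 and 486.5 in GrnKO. Socs3 was 1352 and 1690 in WT against 1696 and 1775 in GrnKO, and the groups of Stat3 and Socs3 no longer overlapped, with GrnKO higher. With that scaling limma called none of the 6 members, and 2 had an unadjusted p under 0.05, as had 21.7% of all genes. On whole tags, edgeR with the TMM factors and DESeq2 with its own scaling each called 3 members. Over all genes edgeR called 2232 of 15380 and DESeq2 2168 of 12398. Limma in the authors' scaling called 11.7% of all genes, 1.08% lower and 10.6% higher, with no overlap of groups in 13.5% on the lower and 36.2% on the higher side. Relative to the median of all genes after TMM the log2 changes were -0.25 for Il10ra, -0.45 for Mir7086, 0.39 for Il10rb, 0.33 for Stat3, -0.28 for Il10 and 0.02 for Socs3. A scaling shifts all genes by about the same amount, so these relative values are nearly the same in both scalings by construction and do not bear on the lost calls. The summed share of tags in regions, low in WT replicate 1, does not depend on the scaling, and its part in these results was not tested.

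Marker genes also held different levels in the libraries of the genotypes. The 7 microglial markers had a mean at the strongest promoter region of 511 and 601 in WT against 420.5 and 449 in GrnKO, and 6 of them were lower in both GrnKO libraries than in both WT libraries, the exception being Csf1r. In the authors' scaling that mean was 421.5 and 623 in WT against 455 and 486 in GrnKO, where the groups overlapped. Of 7 markers of border macrophages 5 had a promoter region, with a mean of 35.0 and 38.2 in WT against 62.2 and 48.8 in GrnKO, and Cd163 and Lyve1 had none. Among them Ms4a7 held 37.1 and 29.6 in WT against 131.5 and 105 in GrnKO. The groups of the other 4 overlapped: Mrc1 held 54.4 and 84.1 in WT against 85.4 and 83.5 in GrnKO, Pf4 36.8 and 23.8 in WT against 28.9 and 15.9 in GrnKO, Cbr2 21.5 and 22.8 in WT against 26 and 17.3 in GrnKO and F13a1 25.4 and 30.6 in WT against 39.3 and 21.7 in GrnKO. Flt1, the one endothelial marker with a promoter region, held 7.04 and 13.6 in WT against 60.0 and 62.5 in GrnKO, with GrnKO higher. Of the neutrophil markers with a promoter region S100a8 held 0 and 5.24 in WT against 20.4 and 18.7 in GrnKO, while Cxcr2 held 1.96 and 5.76 in WT against 2.26 and 1.85 in GrnKO, with overlapping groups. The mean of the astrocyte list was 6.45 and 0.393 in WT against 7.64 and 3.46 in GrnKO, with overlapping groups. Of the oligodendrocyte markers, Mog held 54.0 and 47.7 in WT against 27.4 and 25.1 in GrnKO and Mbp 21.9 and 11.3 in WT against 30.6 and 26.3 in GrnKO. Olig2, whose protein was sorted against, held at most 2.26 scaled tags, Cd2, the one T cell marker with a promoter region, at most 0.85, and the means of the monocyte, B cell and neuron lists were at most 3.67. The part of these differences in the result at the Il10ra locus was not tested.

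**Figure D1:**
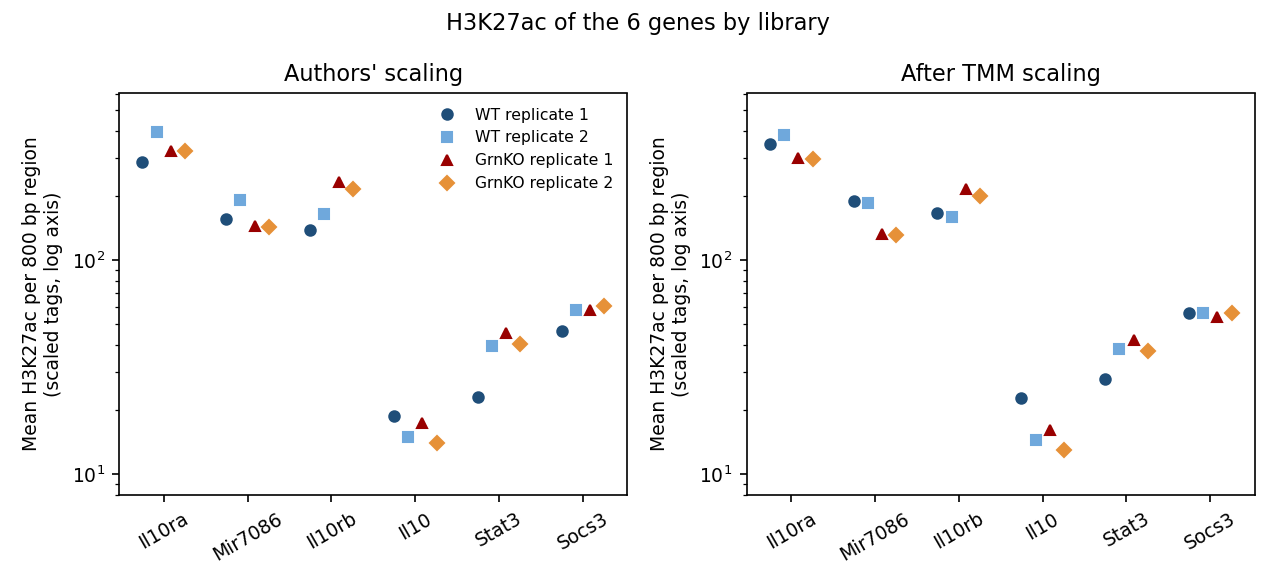
H3K27ac per gene in each of the 4 libraries, as the mean over the gene's 800 bp regions in scaled tags on a log axis, in the authors' scaling (left) and after TMM (right). After TMM both GrnKO points lie below both WT points for Il10ra and Mir7086 and above them for Il10rb, while in the authors' scaling the Il10ra points overlap.

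Per region, the mean level in WT ran from Il10ra (366 ± 25.6 scaled tags, SD, n = 2) over Mir7086 (186 ± 2.51) and Il10rb (162.5 ± 5.97) to Socs3 (56.4 ± 0.159), Stat3 (33.1 ± 7.34) and Il10 (18.5 ± 5.90). All regions are 800 bp wide, so these levels are per length. In GrnKO, Il10rb (206 ± 11.2) lay above Mir7086 (132 ± 1.18), and the other places in the order were the same, with Il10ra at 298 ± 1.25, Socs3 at 55.3 ± 1.74, Stat3 at 39.8 ± 3.32 and Il10 at 14.5 ± 2.20. No pair of neighbours in either order had overlapping libraries within a genotype. Input gave at most 7.68 scaled tags per region for Mir7086, 4.08 for Il10ra, 4.41 for Il10rb and 5.27 for Stat3. For Il10 the highest input, 16.4 in WT replicate 1, lay within the range of the H3K27ac libraries.

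All 47 regions of the Il10ra locus passed the filter on low tags. After TMM, 46 had a log2 change below 0 and 1 above, with a median of -0.49 and a range of -2.61 to 0.20, against a median of -0.002 over all 80728 regions tested. In 39 of the 47 both GrnKO libraries were below both WT libraries, and in 0 both were above. Over all regions the groups did not overlap in 25.6% on the lower side and 27% on the higher side. Limma called 12 of the 47 lower, 4 named for Il10ra and 8 for Mir7086. Across the table it called 9.71% of regions, 2.92% lower and 6.8% higher, and 23.9% of regions had an unadjusted p under 0.05. Of the 47 regions, 36 overlap another listed region and share reads with it, and the 12 called ones form 8 separate blocks. In the authors' scaling both GrnKO libraries were lower in 26 of the 47 and higher in 1, where 13.3% and 35.8% of all regions did so, and 1 region was called, where 8.56% of all regions were, 0.412% lower and 8.15% higher. The 12 had a log2 change below 0 in each of the alternatives run, but the number of locus regions past the threshold was 7 with DESeq2 and 4 with no filter. It fell without either GrnKO library and rose without WT replicate 2. Over the whole table DESeq2 called 5804 of 66641 regions, of which 1665 were lower.

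**Figure D2:**
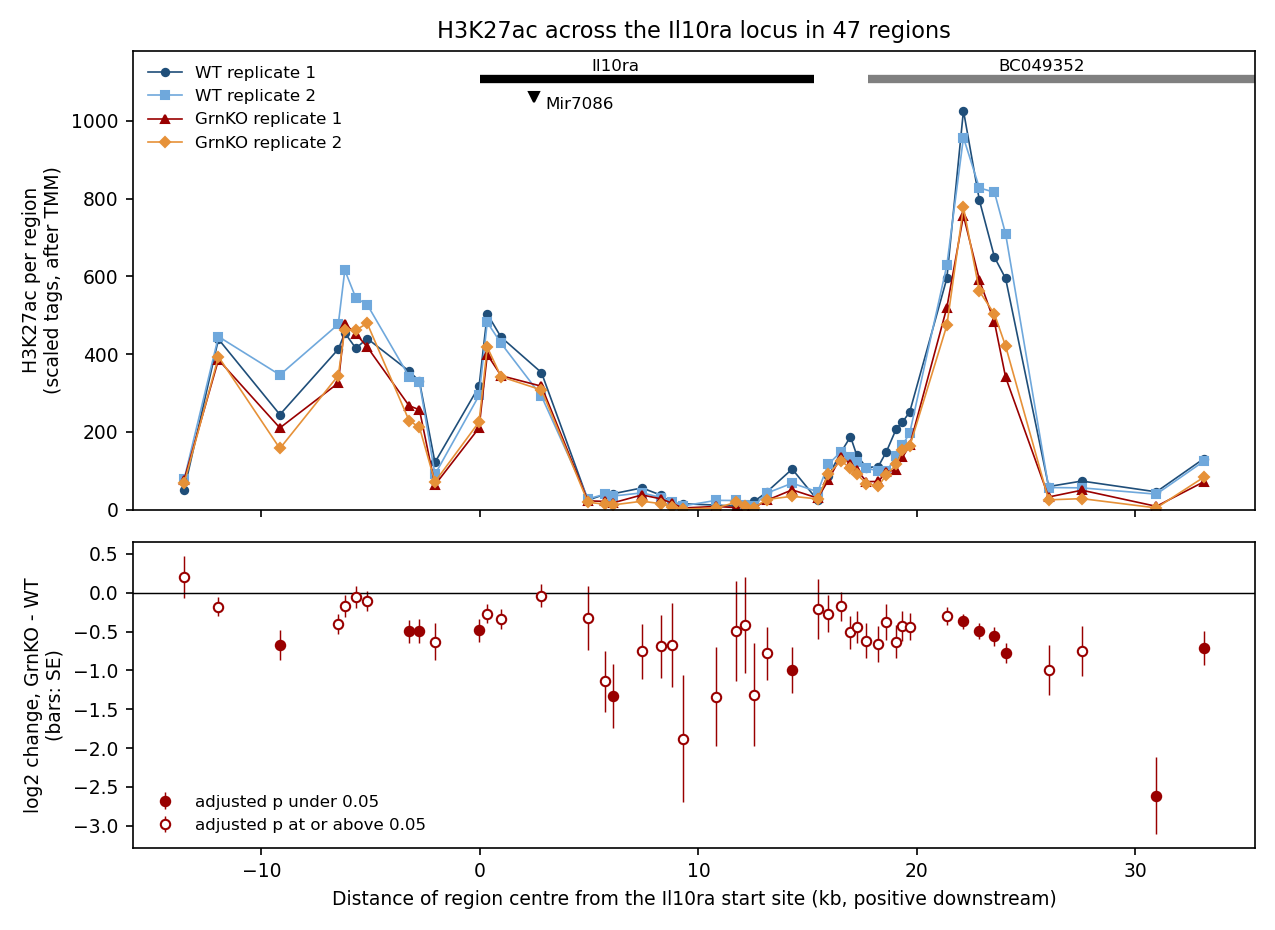
H3K27ac in the 47 regions of the Il10ra locus against the distance of the region centre from the Il10ra start site in kb, positive downstream. The upper panel gives scaled tags after TMM in each of the 4 libraries, with bars for the spans of Il10ra and of BC049352, which goes on beyond the right edge, and a triangle for Mir7086. The lower panel gives the log2 change, GrnKO minus WT, with SE bars and filled points for the 12 regions past the threshold, which lie upstream, at the start site, in the gene body and in the introns of BC049352.

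The start of Il10ra carried high acetylation that was lower in GrnKO after TMM. The promoter region at chr9:45268790-45269590 was called and held 317 and 294 in WT against 210.2 and 226 in GrnKO (log2 change -0.48 ± 0.151, SE). DESeq2, no filter, the authors' scaling and leaving out any library but WT replicate 2 ended that call. A pair of intron 1 regions next to it also had groups that did not overlap. At 334 bp downstream of the start the values were 503 and 482 in WT against 399 and 418 in GrnKO. The region 967 bp downstream had 443.5 and 428 in WT against 344.5 and 342 in GrnKO. The region that holds the Mir7086 hairpin, 2.82 kb downstream and still in intron 1, held 352 and 292 in WT against 317 and 308 in GrnKO. Its groups overlapped, and its log2 change was -0.04 ± 0.145 (SE); in the authors' scaling both GrnKO libraries were the higher ones there. Start and intron 1 together summed to 1616 and 1495 in WT against 1271 and 1293 in GrnKO, and in the authors' scaling to 1334 and 1548 in WT against 1374 and 1399 in GrnKO, where the groups overlapped.

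Upstream of Il10ra, 10 intergenic regions reach to 13.5 kb before the start site, and 3 of them were called lower, against 2.92% of all regions. None of the 10 was called lower in the authors' scaling, against 0.412% of all regions. The nearest, 2.06 kb upstream, held 122 and 90.6 in WT against 63.6 and 71.5 in GrnKO and was not called. A pair of overlapping called regions followed at chr9:45271519-45272319 and chr9:45271994-45272794. The first had 330.1 and 328 in WT against 257 and 212 in GrnKO (log2 change -0.49 ± 0.152, SE). In the second they were 356 and 342 in WT against 267 and 229 in GrnKO (log2 change -0.50 ± 0.147, SE). In both, the higher GrnKO library stayed below the lower WT library after TMM. In the authors' scaling the groups of the first overlapped, with 272 and 339 in WT against 278 and 229 in GrnKO. No filter, the authors' scaling and leaving out either GrnKO library ended both calls, and DESeq2 that of the first.

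A cluster of 4 strong regions farther upstream held smaller log2 changes. The one at 5.16 kb held 440.0 and 527 in WT against 418 and 479 in GrnKO. At 5.68 kb the values were 415 and 544 in WT against 452 and 462 in GrnKO. At 6.19 kb they were 454 and 616 in WT against 478 and 463 in GrnKO. The groups of these 3 overlapped, and their log2 changes lay between -0.17 and -0.06. The region at 6.49 kb, which overlaps the last of them, had 413 and 477 in WT against 326 and 345 in GrnKO, with no overlap of the groups.

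Farther out, the region at chr9:45277907-45278707, 9.16 kb upstream, was called, with 244 and 346.5 in WT against 210.2 and 157 in GrnKO (log2 change -0.68 ± 0.189, SE). WT replicate 2 was the high library there and GrnKO replicate 2 the low one. The groups overlapped in the authors' scaling, which ended the call, as did no filter and leaving out either GrnKO library or WT replicate 2 (log2 change -0.42 without the latter). At 11.97 kb upstream the values were 438 and 445 in WT against 385.5 and 393 in GrnKO, lower in both GrnKO libraries by a small margin. The outermost region, at 13.5 kb, held 50.5 and 78.3 in WT against 77.2 and 67.8 in GrnKO, and it was the 1 region of the locus with a log2 change above 0. The 10 upstream regions summed to 3263 and 3794 in WT against 2935 and 2880 in GrnKO, and in the authors' scaling to 2693 and 3930 in WT against 3173 and 3116 in GrnKO, where the groups overlapped.

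Inside the gene body, from 4.9 to 14.3 kb downstream, acetylation was low, and in 12 of 13 regions both GrnKO libraries were below both WT libraries, against 25.6% of all regions. The 13 regions summed to 431 and 386 in WT against 247.5 and 189.9 in GrnKO, and also without overlap in the authors' scaling, 356 and 399.8 in WT against 268 and 205 in GrnKO. Of these, 2 were called, against 2.92% of all regions. At chr9:45262674-45263474 in an intron of a non-coding Il10ra transcript the values were 40.7 and 34.8 in WT against 17.2 and 12 in GrnKO (log2 change -1.33 ± 0.414, SE). Its overlapping neighbour, 5.72 kb downstream of the start, held 39.1 and 39.5 in WT against 21.2 and 14.1 in GrnKO. In the last exon of that transcript, at chr9:45254462-45255262, they were 104 and 68.1 in WT against 50.9 and 34.4 in GrnKO (log2 change -0.99 ± 0.299, SE). Both called regions had every GrnKO library below every WT library. DESeq2, no filter, the authors' scaling and leaving out any library but WT replicate 2 ended both calls.

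The rest of the gene body was not called. At 4.94 kb the values were 24.6 and 27.8 in WT against 22.6 and 18.9 in GrnKO. At 7.42 kb they were 55.9 and 43.2 in WT against 37.9 and 21.7 in GrnKO. At 8.31 kb they were 36.8 and 30.9 in WT against 27.4 and 15.2 in GrnKO. In all 3 the GrnKO libraries were the lower ones. The middle of the gene had the weakest signal of the locus. At 8.80 kb the values were 16.4 and 20.4 in WT against 16.4 and 7.38 in GrnKO. At 9.27 kb they were 15.2 and 9.43 in WT against 4.24 and 1.38 in GrnKO. At 10.8 kb they were 11.7 and 23.8 in WT against 8.20 and 4.38 in GrnKO. Some GrnKO values there come near the floor of 3 tags, which is 1.835 and 1.498 scaled tags in the GrnKO libraries before TMM. At 11.7 kb the values were 8.99 and 23.6 in WT against 5.37 and 18.5 in GrnKO, the only region of the gene body whose groups overlapped. At 12.1 kb they were 11.3 and 12.1 in WT against 6.79 and 10.6 in GrnKO. At 12.6 kb they were 21.1 and 10.2 in WT against 5.37 and 5.31 in GrnKO. Toward the 3′ end the signal rose again. In the last coding exon, 13.1 kb downstream, the region held 45.0 and 42.2 in WT against 23.8 and 26.1 in GrnKO.

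Between Il10ra and BC049352, the neighbouring gene that is transcribed toward it, 6 regions had log2 changes of -0.62 to -0.17. None was called by limma, edgeR or DESeq2, while 3 had an unadjusted p under 0.05 in limma. At the 3′ end of Il10ra, 15.5 kb downstream, the values were 23.9 and 45.8 in WT against 29.7 and 27.4 in GrnKO. At 15.9 kb they were 85.6 and 116 in WT against 75.2 and 90.9 in GrnKO. In these regions the groups overlapped. At 16.5 kb the values were 147 and 149 in WT against 136 and 126 in GrnKO. At 17.0 kb they were 188 and 136 in WT against 117 and 106 in GrnKO. At 17.3 kb they were 139.6 and 124 in WT against 102 and 90.7 in GrnKO. At 17.7 kb, beside the 3′ end of BC049352, the values were 108 and 106 in WT against 72.1 and 67.1 in GrnKO. In the last 4 both GrnKO libraries were the lower ones.

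Over the 3′ end of BC049352 all 5 regions had groups that did not overlap, with GrnKO lower, as in 25.6% of all regions. At 18.2 kb the values were 111 and 100.0 in WT against 72.4 and 60.4 in GrnKO. At 18.6 kb they were 149 and 98.2 in WT against 97.0 and 89.3 in GrnKO. At 19.1 kb they were 208 and 138 in WT against 103 and 116 in GrnKO. WT replicate 1 was the highest library in each. At 19.3 kb the values were 225 and 166 in WT against 134 and 153 in GrnKO. At 19.7 kb they were 251 and 197 in WT against 165 and 163 in GrnKO. None of the 5 was called by limma, edgeR or DESeq2, and 4 had an unadjusted p under 0.05 in limma.

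The strongest acetylation of the locus lay in intron 4 of BC049352, in 5 overlapping regions 21.4 to 24.1 kb downstream of the Il10ra start, and it was lower in GrnKO in all of them. They summed to 3660 and 3938 in WT against 2689 and 2736 in GrnKO, and in the authors' scaling to 3020 and 4078 in WT against 2908 and 2960 in GrnKO. The peak, chr9:45246617-45247417, ranked 15 of all 80728 tested regions by its WT mean. It was called, with 1026 and 957 in WT against 756 and 778 in GrnKO (log2 change -0.37 ± 0.0981, SE). At chr9:45245885-45246685 the values were 795 and 827 in WT against 591 and 561 in GrnKO (log2 change -0.49 ± 0.106, SE), also called. The log2 changes of the cluster ran from -0.30 on its near side to -0.78 on its far side. At chr9:45245196-45245996 the values were 649 and 816 in WT against 482 and 503 in GrnKO (log2 change -0.56 ± 0.123, SE). At chr9:45244688-45245488 they were 594 and 709 in WT against 341 and 421 in GrnKO (log2 change -0.78 ± 0.135, SE). These last 2 were called as well, which makes 4 of 5 against 2.92% of all regions. All 4 lost the call in the authors' scaling and without GrnKO replicate 1, all but the last also without GrnKO replicate 2, and the peak also with no filter. On the near side, at 21.4 kb, the region was not called and held 595 and 629 in WT against 519.6 and 474 in GrnKO.

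Beyond this cluster, introns 1 to 3 of BC049352 held 4 separate weaker regions, each lower in both GrnKO libraries in both scalings (25.6% of all regions after TMM and 13.3% in the authors' scaling), and 2 were called, against 2.92% of all regions. In intron 3, 26.03 kb downstream, the values were 59.4 and 56.8 in WT against 32.5 and 25.1 in GrnKO. In intron 2, at 27.6 kb, they were 73.5 and 56.0 in WT against 50.1 and 28.4 in GrnKO. At chr9:45237791-45238591 in intron 1 they were 45.8 and 39.8 in WT against 8.48 and 4.38 in GrnKO (log2 change -2.61 ± 0.494, SE). This was the largest change of the locus and the 1 locus region that was also called in the authors' scaling. At chr9:45235616-45236416, also in intron 1 and the farthest region of the locus, the values were 131 and 124 in WT against 71.6 and 83.3 in GrnKO (log2 change -0.72 ± 0.219, SE), and it was called after TMM. DESeq2, no filter, the authors' scaling and leaving out either GrnKO library ended that call.

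Regions within 100 kb of the outermost regions of the locus that belong to other genes numbered 27, of which 18 were tested. On the downstream side 1 of 7 was called lower, against 2.92% of all regions. It is named for Tmprss4, a membrane serine protease gene, and lies at chr9:45221317-45222117, within the span of BC049352. Its values were 52.8 and 42.2 in WT against 21.5 and 17.8 in GrnKO (log2 change -1.23 ± 0.364, SE, limma adjusted p = 0.0395), and DESeq2, no filter, the authors' scaling and leaving out any of WT replicate 1, GrnKO replicate 1 and GrnKO replicate 2 ended that call. The nearest region on that side, at 39.6 kb, also named for Tmprss4, held 20.3 and 13.1 in WT against 7.35 and 6.46 in GrnKO and was not called (limma adjusted p = 0.259). On the upstream side, where the tested regions are all named for Tmprss13, another membrane serine protease gene, limma, edgeR and DESeq2 called 0 of 11. In limma 3 had an unadjusted p under 0.05, against 23.9% of all regions. In the authors' scaling limma called 1 higher, against 8.15%, and with the replicate number as a block also 1 higher, where it called 7403 of 80728. After TMM both GrnKO libraries were lower in 6 of the 11 and higher in 2, as in 25.6% and 27% of all regions. The nearest of the 11, 25.2 kb upstream, held 39.9 and 21.2 in WT against 49.2 and 37.6 in GrnKO (limma adjusted p = 0.400). Its groups overlapped.

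Il10rb encodes the receptor chain that IL-10 shares with several related cytokines. Its 11 regions on chromosome 16 were all tested, and all 11 had a log2 change above 0, with a median of 0.34 and a range of 0.25 to 0.63. In 9 both GrnKO libraries were the higher ones, which held for 27% of all regions after TMM. In the authors' scaling it was all 11, and 35.8% of all regions. The strongest, in intron 1 within 1000 bp of the start at chr16:91406357-91407157, held 381 and 347 in WT against 517 and 413 in GrnKO (log2 change 0.34 ± 0.138, SE). At the start site itself, chr16:91405830-91406630, the values were 325 and 264 in WT against 383 and 336 in GrnKO. The upstream edge of the promoter, chr16:91405395-91406195, had the largest change, with 118.5 and 94.5 in WT against 172 and 158 in GrnKO (log2 change 0.63 ± 0.2, SE). These promoter regions overlap and share reads.

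Away from the promoter, Il10rb regions in introns 3 and 4 were higher in both GrnKO libraries too. At chr16:91415632-91416432 in intron 4 the values were 266 and 299 in WT against 337 and 341 in GrnKO. At chr16:91413126-91413926 in intron 3 they were 125 and 109.5 in WT against 146 and 175 in GrnKO. None of the 11 regions was called by limma, edgeR or DESeq2, 3 had an unadjusted p under 0.05 in limma (23.9% of all regions had), and in the authors' scaling 1 was called, the upstream edge of the promoter. Limma with the replicate number as a block called 2 of them higher, where it called 7403 of 80728 regions higher. The summed gene, with a log2 change of 0.34, was no longer called without GrnKO replicate 1 (0.29), without GrnKO replicate 2 (0.40) or in the authors' scaling (0.57).

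Il10 encodes the ligand, and its own start was near background. Of 12 regions on chromosome 1, 7 were tested, and the other 5 held at most 12.6 scaled tags in the authors' scaling in any library. At the promoter, chr1:131019246-131020046, the values were 12.1 and 1.83 in WT against 8.20 and 8.07 in GrnKO. In exon 1, chr1:131019548-131020348, they were 8.99 and 4.71 in WT against 7.35 and 12.9 in GrnKO. The input of WT replicate 1 held 67.4 and 68.7 scaled tags in these regions, above all 4 H3K27ac libraries, and the other inputs held at most 11.8. The signal counted for Il10 came mainly from 3 overlapping regions 32758 to 33529 bp downstream of its start at the 3′ end of Mapkapk2, a kinase gene, with 73.6% to 79.4% of the sum in each library. The highest of these, chr1:131052608-131053408, held 92.3 and 56.8 in WT against 58.0 and 53.1 in GrnKO, with overlapping groups. No Il10 region was called by limma, edgeR or DESeq2, and 0 of the 7 had an unadjusted p under 0.05 in limma. WT replicate 1 decides the direction of the sum: without it the log2 change was 0.0072, and without WT replicate 2 it was -0.65 and was called.

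Stat3 encodes the transcription factor that the receptor activates. Its 12 regions lie on chromosome 11, where Grn lies too, 1.49 Mb from the start of Stat3; 10 were tested. At the promoter the groups overlapped. The strongest region within 1000 bp of the start, chr11:100938354-100939154 in intron 1, held 82.9 and 125 in WT against 130.4 and 106 in GrnKO. At the start site, chr11:100939273-100940073, the values were 68.4 and 77.8 in WT against 86.3 and 61.8 in GrnKO. The window from 250 bases before to 50 after the start in RefSeq (GRCm38.p6, chr11:100939491-100939790, minus strand) lies inside that region and is shown because the groups overlapped at the start site of Stat3 while those of single regions in its intron 1 did not.
Stat3 promoter: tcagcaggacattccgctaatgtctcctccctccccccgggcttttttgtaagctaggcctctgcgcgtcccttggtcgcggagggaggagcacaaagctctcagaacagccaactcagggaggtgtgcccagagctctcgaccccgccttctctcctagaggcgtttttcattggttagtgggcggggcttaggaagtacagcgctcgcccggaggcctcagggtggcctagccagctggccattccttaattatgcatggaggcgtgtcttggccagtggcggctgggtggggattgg
It held no match on either strand to TTCNNNGAA (the STAT motif), GAGGAAGT (PU.1), CACGTG (E-box) or TGANTCA (AP-1), none of which contains another, and is 60.7% G or C against a median of 52.7% over 32851 such windows.

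Of the 10 tested Stat3 regions 7 had a log2 change above 0, with a median of 0.24, and both GrnKO libraries were higher in 3 and lower in 1, where 27% and 25.6% of all regions did so. These 4 lie in intron 1, and 1 was called. At chr11:100935159-100935959, 3981 bp downstream of the start, the values were 25.8 and 41.4 in WT against 71.3 and 98.7 in GrnKO, and this region was called higher (log2 change 1.33 ± 0.311, SE). Both GrnKO libraries lay above both WT ones, also in the authors' scaling, where it was called too. It lost the call without GrnKO replicate 1 and without GrnKO replicate 2. Its overlapping neighbour at chr11:100935641-100936441 held 16.0 and 31.4 in WT against 28.9 and 44.3 in GrnKO, with overlapping groups. The input of GrnKO replicate 1 held 17.3 scaled tags in the called region and 21.5 in this neighbour, and the other inputs held 0 in both. At 11965 bp downstream, chr11:100927175-100927975, the values were 21.1 and 18.9 in WT against 2.83 and 6.92 in GrnKO, lower in both GrnKO libraries but not called. The other regions with both GrnKO libraries higher were not called either. At chr11:100931384-100932184 the values were 28.2 and 27.8 in WT against 36.5 and 31.6 in GrnKO, and at chr11:100934378-100935178 they were 16.4 and 20.7 in WT against 23.5 and 29.5 in GrnKO. With the replicate number as a block limma called 1 Stat3 region higher and 1 lower, where it called 7403 and 3988 of 80728 regions. The 2 regions that were not tested held at most 3.99 scaled tags in the authors' scaling. With only the regions that overlap no other, the log2 change of the sum turned to -0.28, and without WT replicate 2 it was 0.51 and was called.

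Socs3 encodes an inhibitor of cytokine signalling and is a known target of STAT3. Its 29 regions on chromosome 11, 15.5 Mb from Grn, held the most even sums of the 6 genes after TMM though not in the authors' scaling, and 23 of them were tested. The strongest promoter region, chr11:117968877-117969677, held 121 and 97.7 in WT against 113 and 101.5 in GrnKO, with overlapping groups. The RefSeq window around the start (GRCm38.p6, chr11:117969317-117969616, minus strand) lies inside it and is shown with its 1 motif match in capitals.
Socs3 promoter: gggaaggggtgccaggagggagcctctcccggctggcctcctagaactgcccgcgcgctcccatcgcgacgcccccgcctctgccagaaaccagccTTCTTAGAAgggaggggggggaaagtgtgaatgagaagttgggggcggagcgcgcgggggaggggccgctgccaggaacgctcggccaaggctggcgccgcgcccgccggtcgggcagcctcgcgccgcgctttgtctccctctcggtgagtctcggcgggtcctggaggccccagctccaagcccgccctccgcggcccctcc
The match, TTCTTAGAA at -154 to -146 from the start, fits the STAT motif TTCNNNGAA, which 8.3% of 32851 such windows hold. GAGGAAGT (3.2% of windows), CACGTG (7.15%) and TGANTCA (7.81%) had no match there. A match is a stretch of letters and no measure of binding.

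The highest acetylation counted for Socs3 lay in intergenic regions downstream of the gene. At chr11:117959466-117960266, 9500 bp from the start, the values were 262 and 332 in WT against 311 and 299 in GrnKO, and the groups overlapped. Near the gene, the region in intron 1, chr11:117968027-117968827, held 87.2 and 56.0 in WT against 35.9 and 41.8 in GrnKO, lower in both GrnKO libraries with a log2 change of -0.84 ± 0.303 (SE). At chr11:117962029-117962829, 6937 bp downstream, the values were 89.5 and 86.4 in WT against 128 and 117 in GrnKO, higher in both GrnKO libraries. Of the 23 tested regions 14 had a log2 change below 0 and 9 above, with a median of -0.06. The 6 that were not tested held at most 24.2 scaled tags in the authors' scaling. None of the 23 was called by limma, edgeR or DESeq2, and 2 had an unadjusted p under 0.05 in limma. Limma with the replicate number as a block called 1 of them lower, where it called 3988 of 80728 regions lower. The sign of the summed Socs3 change depends on the scaling: it was -0.03 after TMM and 0.20 in the authors' scaling.

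Over all 6 genes 98 of 111 regions passed the filter, and 13 were called, 12 lower and 1 higher, where limma called 9.71% of all regions, 2.92% lower and 6.8% higher. The plot of the change in each tested region sets the 6 genes side by side.

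**Figure D3:**
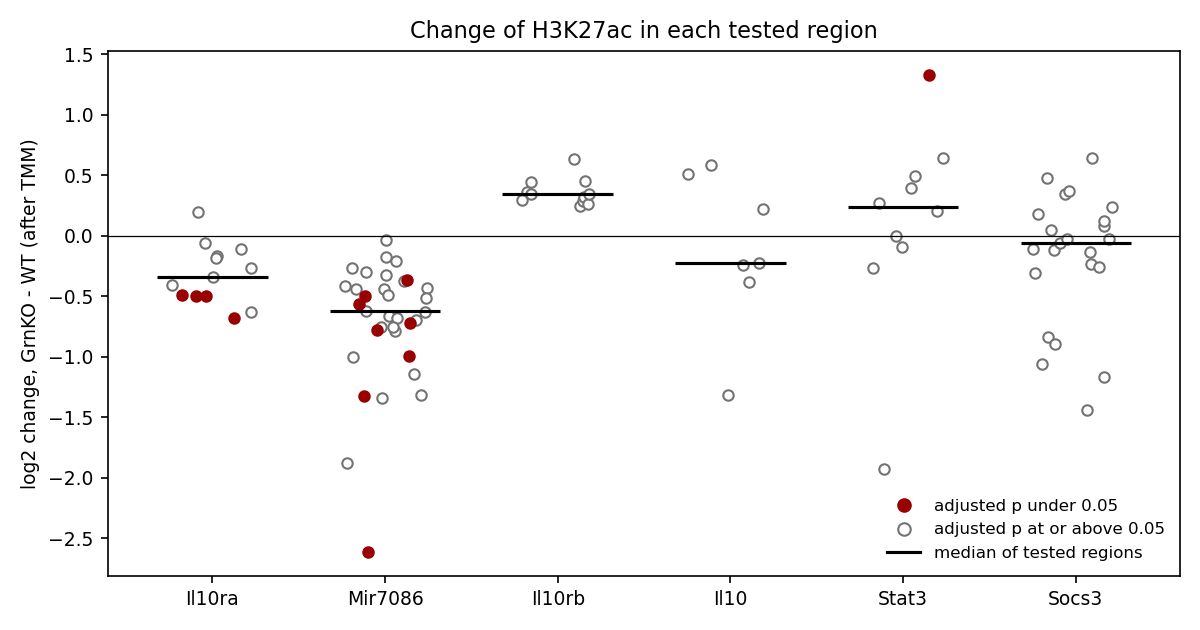
Log2 change of H3K27ac, GrnKO minus WT after TMM, in each of the 98 tested regions by gene. Each point is 1 region, filled where the adjusted p was under 0.05, and the horizontal bars are medians. The filled points are 12 regions of the Il10ra locus below 0 and 1 Stat3 region above 0, and all Il10rb points lie above 0.

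Other genes of the pathway were read from 6 lists with 49 genes, of which 43 were tested on their summed signal. Limma called 1 higher and 2 lower, where it called 14.5% of all genes, 8.59% higher and 5.88% lower. Their median log2 change was -0.09, against -0.05 over all genes tested. Among 6 kinases and STATs, 1 was lower and 0 were higher, and all 6 log2 changes were below 0 after TMM, with a median of -0.21 that was 0.02 in the authors' scaling. The one called was Tyk2, the kinase bound to IL-10RB, with 765 and 649 in WT against 525.5 and 445 in GrnKO (log2 change -0.54 ± 0.14, SE, limma adjusted p = 0.019). It also had the highest level per region of its list over both genotypes and in WT, while in GrnKO Jak1 was higher. The authors' scaling, leaving out GrnKO replicate 2 and taking only regions within 1000 bp of the start (log2 change -0.28) ended this call, and with only the regions that overlap no other the log2 change was 0.14.

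Among 9 other receptors that signal through STAT3, 7 were tested, 1 was called lower and 0 were called higher. Lifr, the receptor of leukaemia inhibitory factor, fell from 1020 and 797 in WT to 549.9 and 513 in GrnKO (log2 change -0.76 ± 0.137, SE, limma adjusted p = 0.0022). Its groups did not overlap in either scaling, though in the authors' scaling it was not called (limma adjusted p = 0.133). Csf3r, the receptor of granulocyte colony-stimulating factor and the highest of this list per region, held 1754 and 2291 in WT against 1890 and 1882 in GrnKO, with overlapping groups (limma adjusted p = 0.692). Its log2 change, -0.09, was -0.28 and called without WT replicate 1, and 0.10 without WT replicate 2.

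Among 11 genes known to be induced by IL-10 in macrophages, limma called 1 higher and 0 lower. Hmox1, which encodes the haem-degrading enzyme haem oxygenase 1, rose from 327 and 401.5 in WT to 554 and 511 in GrnKO (log2 change 0.55 ± 0.148, SE, limma adjusted p = 0.0233). It was called in the authors' scaling too, and not without GrnKO replicate 1, without GrnKO replicate 2 or with only regions within 1000 bp of the start. DESeq2, and limma with a replicate block, called 3 higher, adding Il4ra, a receptor chain of IL-4, and Bcl3, a regulator of NF-kappaB, which were named after their values were seen. Over all genes DESeq2 called 1392 of 12398 higher and limma with the block 1618 of 15380. Il4ra held 2143 and 2018 in WT against 2512 and 2476 in GrnKO (limma adjusted p = 0.0566) and Bcl3 671 and 570.4 in WT against 829 and 766 in GrnKO (limma adjusted p = 0.0729). Zfp36, which encodes an mRNA-destabilising protein and had the highest level per region, held 3627 and 4564 in WT against 3482 and 3625 in GrnKO (limma adjusted p = 0.224), and its change had the other sign in the authors' scaling. It was called lower without WT replicate 1 (log2 change -0.36) and with only regions within 1000 bp of the start (-0.52).

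The other 3 lists had no gene called by limma, edgeR or DESeq2. Limma with the replicate block called 2 inhibitors, Socs1 lower and Socs2 higher. Over all genes, 27% had an unadjusted p under 0.05 in limma. Of the receptors and cytokines of the IL-10 family 5 of 9 were tested, with 2 at an unadjusted p under 0.05 in limma. The cytokine genes Il19, Il20, Il22 and Il24 did not pass the filter on low tags. Il20ra, the receptor chain with the highest level per region over both genotypes, held 279 and 296 in WT against 359 and 351 in GrnKO (limma adjusted p = 0.220). In WT alone Il20rb was higher per region. Of 8 inhibitors of cytokine signalling 2 had an unadjusted p under 0.05 in limma, and Ptpn6, the phosphatase SHP-1 and the highest per region, held 1082 and 1110 in WT against 1009 and 942 in GrnKO (limma adjusted p = 0.343). Of 6 transcription factors known to act on Il10, 1 had an unadjusted p under 0.05 in limma, and Prdm1, the repressor BLIMP-1, held 6317 and 6572 in WT against 6297 and 5995 in GrnKO (limma adjusted p = 0.574). In the authors' scaling limma called Il22ra1, a receptor chain of IL-22, and Socs2, an inhibitor, higher (adjusted p = 0.0293 and 0.00993). These and Socs1 were named after their values were seen.

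**Figure D4:**
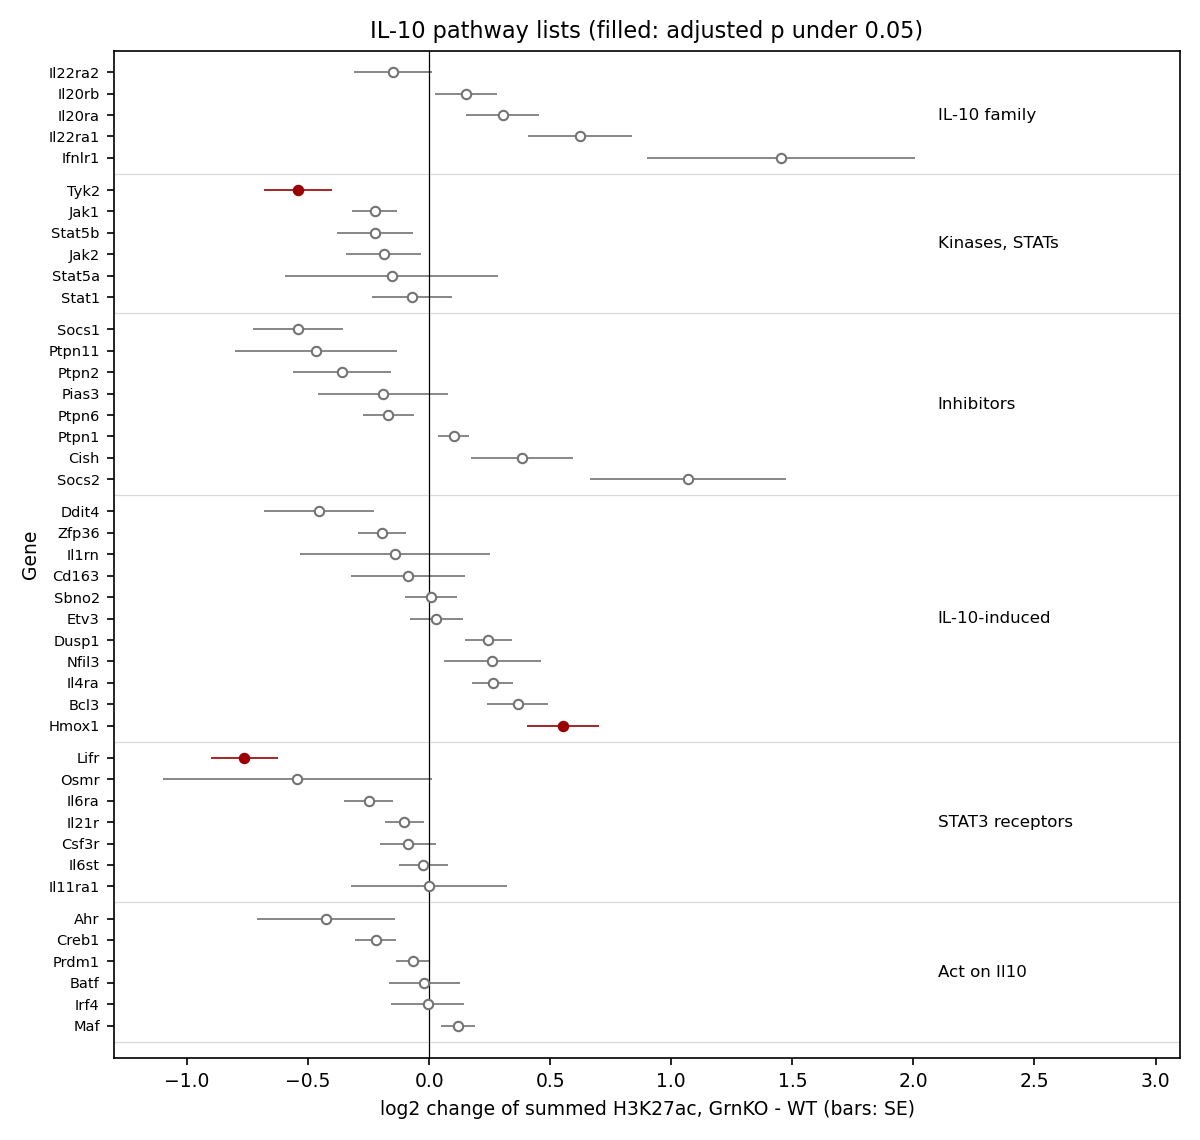
Log2 change of summed H3K27ac, GrnKO minus WT after TMM, of the 43 tested genes of the 6 pathway lists, with SE bars. Filled points passed the threshold: Tyk2 and Lifr lie below 0 and Hmox1 above, and the open points scatter on both sides.

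By the pattern over the 4 libraries, 5 of 585 genes with at least 50% of the mean level of Il10ra were nearest to it. The measure was the Euclidean distance of log2 values centred over the libraries. They were Ccr1, a chemokine receptor gene (distance 0.030), Gm9054 (0.038), 4921509O07Rik (0.043), the proteasome subunit gene Psma1 (0.043) and Ifngr1, a chain of the interferon gamma receptor (0.052). Ccr1 held 9028 and 10182 in WT against 7822 and 7916 in GrnKO, so WT replicate 2 was the highest library, as for Il10ra. With 4 libraries and many genes near each other, the list describes these data only.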

How the data were processed

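H3K27ac and input libraries of sorted microglial nuclei were compared between WT and GrnKO. The submitters' processing notes name the build mm10 and the tools Bowtie2, HOMER and DESeq2, without saying which step used which. Per the file headers, the deposited values are signal: the authors counted tags per region and scaled them to 10000000 tags per library. Multiplying by the library totals gave whole read ends for 100% of values in all 8 columns, so depth is known: 3 tags, the floor used, equal 1.94 and 1.63 scaled tags for the WT H3K27ac libraries, 1.835 and 1.498 for the GrnKO ones. Floors cover counting error only.

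Regions were filtered with edgeR's filterByExpr (minimum 10 tags, by genotype), leaving 80728 of 129304. Limma (3.58.1, with edgeR 4.0.16 for TMM, in R 4.3.3) fitted genotype to log2(scaled tags + 1) of the 4 H3K27ac libraries, with eBayes trend and Benjamini-Hochberg adjustment at 0.05 over all regions, or over all 15380 genes on summed tags. A log2 change on this scale understates the change of low regions. With edgeR's quasi-likelihood test on the recovered tags 7785 regions were called, and with limma 7842. DESeq2 was version 1.42.0. Other settings were a pseudocount of 5, no filter, the authors' scaling, a replicate block, other sums, and leaving out each library.

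The 6 members, the lists of genes and the tests were chosen with earlier results of these data known. Named are all regions of Il10ra and Mir7086, the strongest promoter region and the called regions of the other members, called genes and the highest gene of each pathway list, the 5 genes nearest to Il10ra in pattern, and called and nearest regions around the locus. Other regions of Il10rb, Il10, Stat3 and Socs3 were named after their values were seen. RefSeq (GRCm38.p6) gave the microRNA sequences and promoter windows for 2 of the 6 members. One marker gene is not reported here.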

Additional observations from a re-analysis of the deposited data

How the results depend on the processing

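Of 350 alternative values, 232 kept their direction and side of the threshold (or, for counts, stayed within 1.5 times). The number of Il10ra locus regions past the threshold, 12, was 7 with DESeq2, 1 in the authors' scaling and 4 with no filter, and ranged from 1 to 21 over the fits that left out 1 library. That of all member regions, 13, was 8, 3 and 5 in the same order, with a range of 1 to 23. The number of member genes, 3, was 0 in the authors' scaling, 1 with regions that overlap no other and 0 with regions within 1000 bp of the start, with a range of 1 to 5. The number of pathway genes, 3, was 5 with DESeq2 and 5 with regions that overlap no other, with a range of 2 to 14. Fits on 3 libraries assume that the lone library of a genotype varies like the others. The cause of these shifts was not tested. Over the whole table DESeq2 called 5804 of 66641 regions and 2168 of 12398 genes. Limma in the authors' scaling called 8.56% of all regions and 11.7% of all genes.

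Log2 changes that lost the threshold were, in the authors' scaling, -0.069 for Il10ra, -0.27 for Mir7086 and 0.57 for Il10rb. With regions that overlap no other they were -0.31 for Il10ra and 0.34 for Il10rb, and within 1000 bp of the start -0.35 for Il10ra, -0.037 for Mir7086 and 0.37 for Il10rb. Leaving out overlapping regions drops 10 of the 13 Il10ra regions, and of Il10rb it leaves only the weak region 27516 bp from the start. Over all fits that left out 1 library, of which some kept the threshold, the change ranged from -0.37 to -0.22 for Il10ra and from 0.29 to 0.40 for Il10rb. Without GrnKO replicate 1 and without GrnKO replicate 2 both genes lost it. The sign turned for Il10 within 1000 bp of the start (0.56), for Stat3 with regions that overlap no other (-0.28) and for Socs3 with DESeq2 (0.0061) and in the authors' scaling (0.20). Over fits without 1 library, Il10 ranged from -0.65 to 0.0072, Stat3 from 0.054 to 0.51 and Socs3 from -0.059 to 0.0047. Among pathway genes, the sign turned in the authors' scaling for Ptpn6 (0.057), Zfp36 (0.031), Csf3r (0.14) and Prdm1 (0.16), with regions that overlap no other for Tyk2 (0.14) and Csf3r (0.029), and for Csf3r without WT replicate 2 (0.10).

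The replicate numbers mark different mice, and the deviations of same-numbered libraries correlated at 0.034 over regions. With the replicate number as a block, 21 member regions and 7 pathway genes were past the threshold, and 16 regions of the locus. The block raised the calls over the whole table too, to 11391 of 80728 regions from 7842 and to 2861 of 15380 genes from 2225. With 2 libraries a genotype, a region that was not called may still differ.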
